A study of Homo sapiens with 9 samples.

Results

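The cytochrome P450 genes described here are 56 rows of the deposited gene count table, among 52158 named genes in all. Each has a symbol of CYP, digits, a capital letter and digits, so that pseudogene symbols ending in P are left out. These 56 genes include CYP2D7, whose GENCODE biotype is polymorphic pseudogene. They were read across 9 human cell lines whose labels give oesophageal adenocarcinoma and, as the source, gastric cardia adenocarcinoma: ESO-26, ESO-51, FLO-1, JH_EsoAd1, OAC_5.1_C, OACP4_C, OE19, OE33 and SK-GT-4. Total RNA was taken from each line, grown untreated to 80% confluency. Every line gave 1 column of counts, so differences between lines have no replicate check and no test was made between them. The series mentions 3 technical replicates of each line, and the sources used here do not say how they enter a column.

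P450 enzymes are haem proteins that insert an oxygen atom into drugs, toxins, steroids, fatty acids and vitamins. Those of the endoplasmic reticulum receive electrons from P450 oxidoreductase (POR), and the mitochondrial ones from ferredoxin (FDX1) and its reductase (FDXR). In the gut, CYP3A enzymes meet oral drugs before the liver does, CYP1 enzymes are induced by ligands of the aryl hydrocarbon receptor (AHR), and CYP24A1 is induced by active vitamin D through the vitamin D receptor (VDR).

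Levels are CPM, counts relative to library size, after TMM scaling, which also corrects for library composition. Total counts ranged from 16801179 (ESO-26) to 69881539 (FLO-1), and P450 genes took 4503 counts in ESO-26 and 26880 in SK-GT-4 as the fewest and the most. Intervals are exact Poisson 95% intervals and cover counting error only, as does the floor of 3 counts given where a count was 0 (0.0400 CPM in FLO-1 to 0.173 CPM in ESO-26). Mitochondrial transcripts took 24.7% of counts in JH_EsoAd1 and 1.48% to 7.04% elsewhere. All 5 defining epithelial markers (EPCAM, KRT8, KRT18, KRT19, CDH1) were at 77.8 CPM or more in the libraries other than ESO-26 and OE33. In ESO-26 all 5 were lower by the wider rule of size described below, with EPCAM at 5.13 CPM, KRT8 at 13.4, KRT18 at 4.56, KRT19 at 137.5 and CDH1 at 0.173. In OE33 3 of the 5 were lower, with EPCAM at 0.189 CPM, KRT19 at 16.0 and CDH1 at 21.5, while KRT8 (903 CPM) and KRT18 (247 CPM) were not. ERBB2, widely known as amplified in OE19, was 185 CPM in the library labelled OE19 (rank 6 of 9) and 18325 CPM in that labelled SK-GT-4. Each name below is therefore the label a library carries. Markers of hepatocytes, the main P450-rich cell of the body, reached at most 1.83 CPM (APOB in SK-GT-4), with ALB at most 0.198 CPM. Blood cell markers reached at most 1.81 CPM (PTPRC in OAC_5.1_C). All 5 fibroblast markers passed 5 CPM in some library. DCN did so in ESO-26 alone (13.5 CPM) and PDGFRB in OE33 alone (8.18 CPM). LUM did so in OAC_5.1_C alone (30.1 CPM) and COL1A2 in JH_EsoAd1 alone (40.6 CPM). COL1A1 did so in several libraries, with the most in JH_EsoAd1 (46.5 CPM). Of the endothelial markers, CDH5 was 29.8 CPM in JH_EsoAd1 and 8.36 CPM in FLO-1. VWF and KDR were 0.347 and 0.0991 CPM in JH_EsoAd1 and 0.0400 and 1.45 CPM in FLO-1. Their part in the results was not tested.

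Most P450 genes were detected in some line, and few in every line. Of the 56 genes, 39 (69.6%, CYP2D7 among them) reached 1 CPM in at least 1 library, against 77.0% of 18962 protein-coding genes. Only 5 (8.93%) did so in all 9 libraries, against 48.7% of protein-coding genes: CYP1B1, CYP4V2, CYP51A1, CYP2R1 and CYP20A1. At 5 CPM there were 26 genes (46.4%) in at least 1 library, against 67.1% of protein-coding genes, and 2 (3.57%), CYP2R1 and CYP20A1, in all 9, against 39.2%. FLO-1 held 26 P450 genes at 1 CPM, SK-GT-4 25 and ESO-26 14. FLO-1 was also the deepest library and ESO-26 the shallowest. The next deepest, OACP4_C and OAC_5.1_C (57995387 and 50643672 counts), held 18 and 17 such genes, and JH_EsoAd1 (24290184 counts) held 23. How far depth enters these numbers was not tested.

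**Figure D1:**
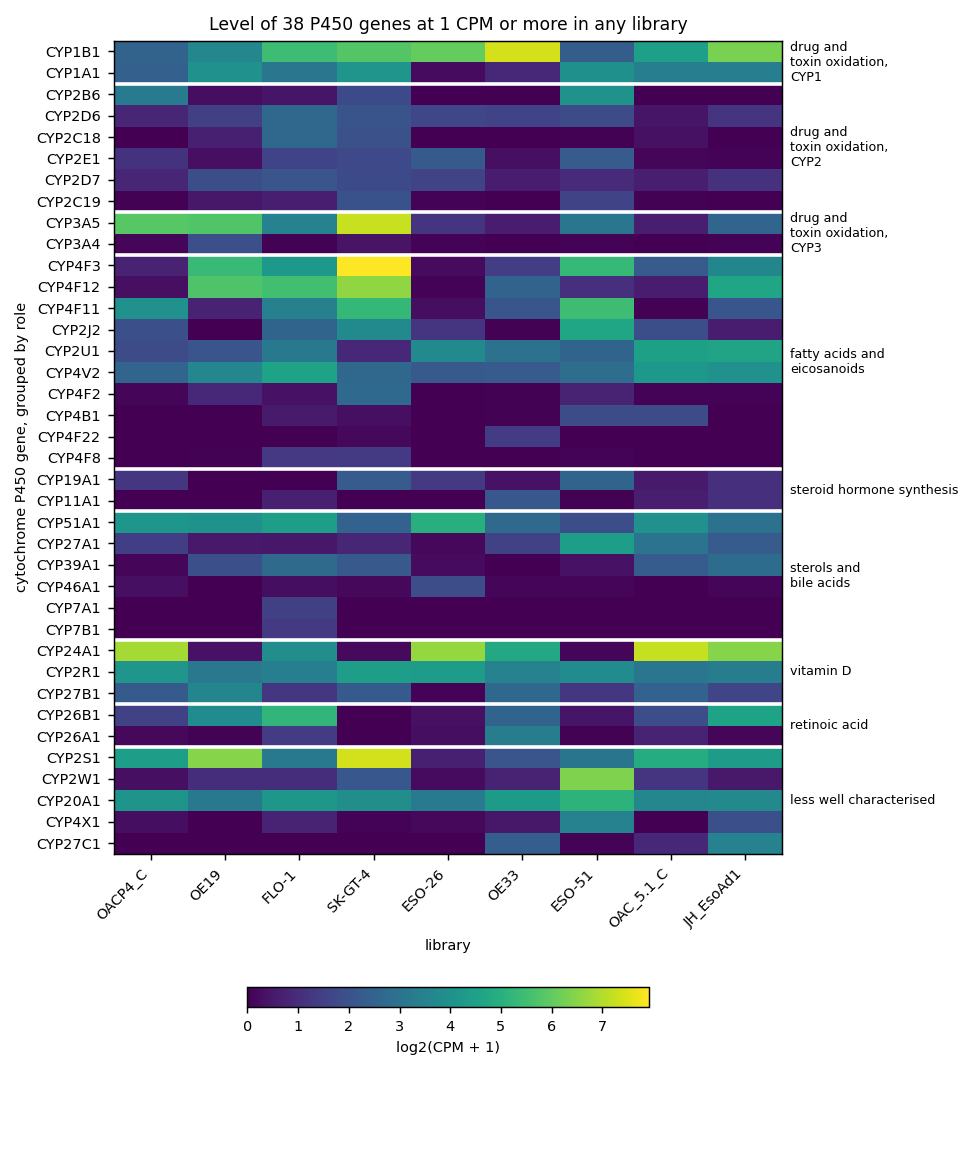
Heat map of log2(CPM + 1) for 38 of the P450 genes at 1 CPM or more in at least 1 library, in rows grouped by role, across the 9 libraries in columns. CYP4F3 in SK-GT-4 (240.3 CPM) is the brightest cell, and rows such as CYP24A1 alternate between bright and dark while CYP2R1 and CYP20A1 keep an even shade.

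Libraries differed in which P450 gene led and in the sum over the family. Genes are compared with each other per length, by the authors' deposited FPKM, in which a gene's length counts all its annotated exons, so that genes with many annotated exons come out low. CYP24A1 led in OAC_5.1_C (51.6% of the summed P450 FPKM), ESO-26 (46.0%), OACP4_C (45.9%) and JH_EsoAd1 (30.5%). CYP1B1 led in OE33 (48.7%) and, by a small margin, in FLO-1 (11.4%, followed by CYP26B1 with 9.73%). CYP2S1 led in OE19 (34.3%) and SK-GT-4 (28.7%), and CYP2W1 in ESO-51 (31.2%). By CPM, without regard to length, 7 of the 9 leaders were the same, and CYP4F3 led in SK-GT-4 and CYP4F12 in FLO-1. The summed P450 level was 864 CPM in SK-GT-4 and lay between 260 CPM (ESO-26) and 364 CPM (JH_EsoAd1) elsewhere. Deposited FPKM gave 56.5 in SK-GT-4 and 8.69 in JH_EsoAd1, the lowest sum. In the JH_EsoAd1 file 77.3% of the counts that FPKM is divided by lay outside the count table, against 25.8% to 51% in the others.

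**Figure D2:**
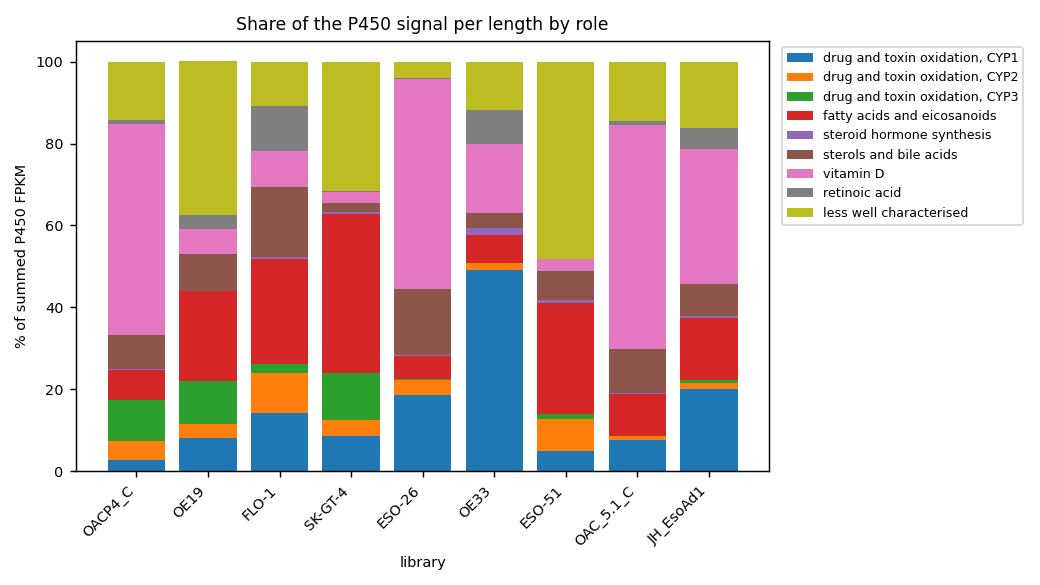
Stacked bars of the percentage of the summed deposited P450 FPKM that each role holds in each library. Vitamin D enzymes hold 51.2% to 54.6% in OACP4_C, ESO-26 and OAC_5.1_C, CYP1 enzymes 49.1% in OE33, and fatty acid and eicosanoid enzymes 39% in SK-GT-4.

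Rules of size describe how far a library stood from the rest, both needing 5 CPM in the higher of the values compared. By the stricter rule, a gene had to lie at least 2 log2 units above the next highest library or below the next lowest. It called 2 of the 26 genes that passed the 5 CPM filter as higher (7.45% of 14580 genes tested were called higher in some library): CYP2W1 in ESO-51 and CYP4F3 in SK-GT-4. It called none as lower (2.78% of genes tested). By the wider rule, over 4-fold from the median of the other 8 libraries, 17 of the 26 were higher in at least 1 library (28.7% of genes tested) and 10 were lower (17.1%). SK-GT-4 and ESO-51 each held 7 higher genes (5.74% and 4.44% of genes tested), OE19 held 5 (4.60%) and JH_EsoAd1 4 (4.95%). There were 3 each in OACP4_C (4%) and FLO-1 (6.19%), 2 in OE33 (5.54%), and 1 each in ESO-26 (4.81%) and OAC_5.1_C (5.73%). Lower genes numbered 6 in ESO-26 (7.98%), 4 each in OE33 (5.24%) and ESO-51 (3.37%), 3 each in OACP4_C (1.92%) and OAC_5.1_C (1.75%), and 2 each in OE19 (4.47%) and SK-GT-4 (3.91%). FLO-1 (1.21%) and JH_EsoAd1 (1.41%) held none. The log2 range from the lowest to the highest library had a median of 3.81 over the 26 genes and 2.35 over all genes tested. These 26 passed through the library in which each was high and are not the whole family, so the shares describe them only.

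Among the CYP1 enzymes, which oxidise polycyclic hydrocarbons, CYP1A1 and CYP1B1 were ordered differently across the lines. CYP1A1 was 16.3 CPM in SK-GT-4, 15 in OE19, 14.7 in ESO-51, 9.47 in JH_EsoAd1, 9.36 in OAC_5.1_C, 7.59 in FLO-1, 4.36 in OACP4_C, 0.867 in OE33 and 0.173 in ESO-26. Its 2 low libraries were thus OE33 and ESO-26, and SK-GT-4 and OE19 did not differ beyond counting error (ratio 1.09, 95% interval 0.953 to 1.24). CYP1B1, an enzyme of oestradiol and hydrocarbon oxidation found mostly outside the liver, was 170.0 CPM in OE33, 79.7 in JH_EsoAd1, 65.7 in ESO-26, 54.6 in SK-GT-4, 43.2 in FLO-1, 21.2 in OAC_5.1_C, 11.7 in OE19, 4.73 in OACP4_C and 4.07 in ESO-51. OE33, next to lowest for CYP1A1, was therefore the highest for CYP1B1, 41.8-fold above ESO-51 (36.0 to 48.7). In GENCODE, CYP1B1 overlaps the antisense gene CYP1B1-AS1 and the gene RMDN2 on the opposite strand, and RMDN2-AS1 on its own strand. Without a stated strand setting, reads of the opposite strand cannot be told apart from those of CYP1B1. Counts of CYP1B1 were equal under both counting modes the authors deposited. CYP1A2, the liver form, had 12 counts in OAC_5.1_C (0.247 CPM) and 0 in every other library.

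The receptor AHR was lowest in ESO-26 and OE33, as was CYP1A1. ESO-26 was also lower for all 5 epithelial markers and OE33 for 3 of them, and the part of this in the result was not tested. AHR stood at 6.63 CPM in ESO-26 and at 26.7 CPM in OE33, and between 111 CPM (OAC_5.1_C) and 812 CPM (SK-GT-4) in the other 7. Its partner ARNT stayed between 33.4 and 104 CPM. AHRR, a repressor that AHR induces, was 49.3 CPM in OE33 and 38.6 CPM in OE19, and 1.92 CPM (OACP4_C) to 17.2 CPM (FLO-1) elsewhere, so that OE33 combined low AHR with high AHRR. TIPARP, another AHR target, ranged from 22.4 CPM in OE33 to 152 CPM in SK-GT-4. Of the 5 genes of this pathway, 2 passed the wider rule as higher in some library and 2 as lower (28.7% and 17.1% of genes tested), together AHR, AHRR and TIPARP.

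**Figure D3:**
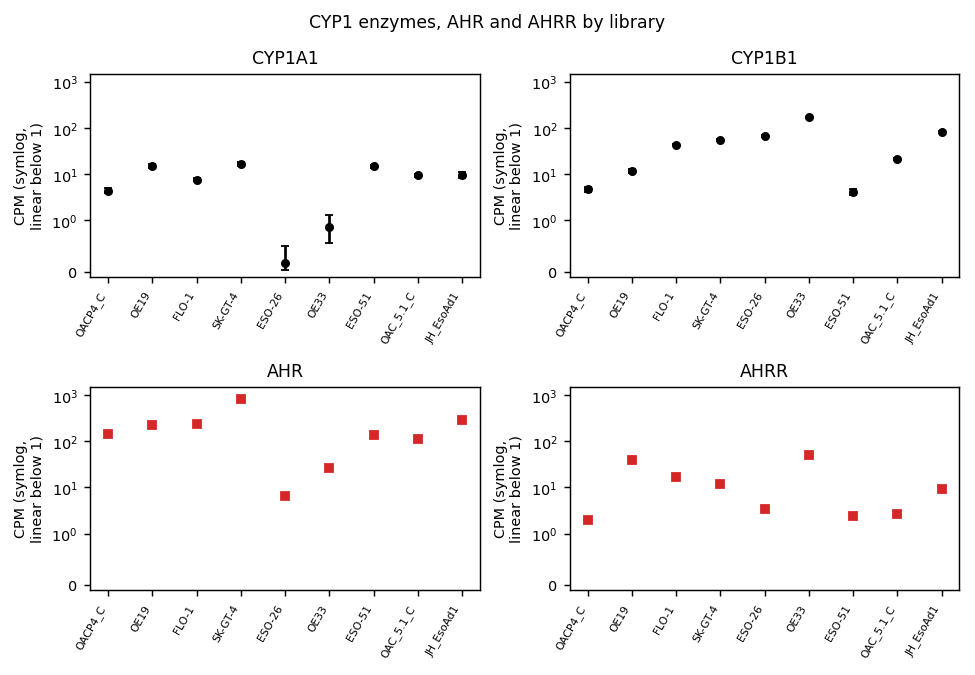
CPM by library for CYP1A1 and CYP1B1 (black points with Poisson 95% intervals) and for AHR and AHRR (red squares), on axes that are logarithmic above 1 CPM and linear below. CYP1A1 and AHR are lowest in ESO-26 and OE33, while CYP1B1 and AHRR peak in OE33.

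The promoter of CYP1A1 is shown with the core of the site that AHR binds with ARNT, searched as GCGTG on both strands. The 150 bases before the start (RefSeq, GRCh38.p14, chr15:74725529-74725678, minus strand, 5′ to 3′) are given with the core in capitals.
CYP1A1: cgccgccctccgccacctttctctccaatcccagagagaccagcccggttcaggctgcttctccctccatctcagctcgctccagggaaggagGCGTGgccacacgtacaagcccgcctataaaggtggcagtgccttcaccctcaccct
The core, or its reverse complement CACGC, was found in the 250 bases before the start in 32.2% of 35116 RefSeq promoters. Among P450 genes it was found in 11 of the 52 promoters in that table, which belong to 39 genes. A match is a description of letters and not a bound site.

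Of the CYP3A genes, neighbours on chromosome 7 whose enzymes oxidise a large part of prescribed drugs, CYP3A5 was the member that reached 5 CPM. CYP3A5 was 151 CPM in SK-GT-4, 57.2 in OACP4_C, 52.9 in OE19, 10.5 in FLO-1, 7.67 in ESO-51, 5.01 in JH_EsoAd1, 1.33 in ESO-26, 0.597 in OAC_5.1_C and 0.528 in OE33. The 3 highest libraries stood apart from the rest, with OE19 5.04-fold above FLO-1 (4.62 to 5.50). CYP3A4, the main adult liver and gut form, reached 2.78 CPM (78 counts) in OE19 and at most 0.322 CPM elsewhere. CYP3A7, the fetal form, reached 0.724 CPM in OACP4_C, and CYP3A43 0.161 CPM in SK-GT-4. Sharing of reads between these genes was limited, since 1.14% of the 50-base windows in CYP3A5 transcripts occurred in another P450 gene or pseudogene, 7.99% for CYP3A4 and 5.86% for CYP3A7 (GENCODE 29 transcripts). CYP3A7 also overlaps a readthrough gene on its strand.

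The pregnane X receptor, encoded by NR1I2, activates CYP3A genes. NR1I2 was 6.31 CPM in OE19, the library with the most CYP3A4, and 2.06 CPM in SK-GT-4, with at most 0.328 CPM in the other 7. OACP4_C, second for CYP3A5, held the highest of those 7 values. HNF4A, a liver and gut factor, was 124 CPM in OE19, 138 in SK-GT-4 and 167 in ESO-51, 19.6 CPM in JH_EsoAd1, and 0.121 CPM in OACP4_C. High CYP3A5 was thus present both with high HNF4A (SK-GT-4, OE19) and with HNF4A near 0 (OACP4_C).

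Promoters of CYP3A genes are shown for the everted repeat that this receptor binds, searched on both strands with exact half-sites and any 6 bases between them. Matches are in capitals, whose first and last 6 letters are the half-sites. Each is the stretch from 200 to 51 bases before the start (RefSeq, GRCh38.p14, minus strand, 5′ to 3′): chr7:99784235-99784384 for CYP3A4, chr7:99680047-99680196 for CYP3A5 and chr7:99735247-99735396 for CYP3A7.
CYP3A4: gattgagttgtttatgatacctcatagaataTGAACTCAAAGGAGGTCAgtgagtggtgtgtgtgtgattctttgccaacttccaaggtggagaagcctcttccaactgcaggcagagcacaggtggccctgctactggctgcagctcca
CYP3A5: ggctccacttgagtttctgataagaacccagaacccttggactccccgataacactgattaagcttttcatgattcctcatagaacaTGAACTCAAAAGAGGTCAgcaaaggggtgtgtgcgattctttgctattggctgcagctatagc
CYP3A7: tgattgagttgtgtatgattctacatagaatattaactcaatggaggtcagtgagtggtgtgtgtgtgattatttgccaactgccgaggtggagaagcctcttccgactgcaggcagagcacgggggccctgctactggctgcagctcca
These letters were found in 3 of 35116 promoters (0.00854%), among them CYP3A4 and CYP3A5, at 169 to 152 and 113 to 96 bases before the start. CYP3A7 has no exact match in its window.

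Most CYP2 drug-oxidising genes were low. CYP2B6, which oxidises cyclophosphamide and efavirenz, was 15.7 CPM in ESO-51, 8.45 in OACP4_C and 2.44 in SK-GT-4, then 0.360 in FLO-1, 0.214 in OE19, and 0 counts in ESO-26, OE33, OAC_5.1_C and JH_EsoAd1. It had no count in 4 of the 9 libraries. CYP2D6, which oxidises codeine and tamoxifen, was 5.28 CPM in FLO-1, 3.15 in SK-GT-4, 2.51 in ESO-51, 2.19 in ESO-26, 2.04 in OE33, 1.85 in OE19, 1.29 in JH_EsoAd1, 0.794 in OACP4_C and 0.370 in OAC_5.1_C. Of its 50-base windows 34.4% occur in another P450 gene or pseudogene, mainly CYP2D7 (31.9%), so the split between CYP2D6 and CYP2D7 (at most 3.21 CPM, FLO-1) is uncertain.

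The CYP2C genes lie together on chromosome 10. CYP2C18 was highest in FLO-1, with SK-GT-4 second, whereas CYP2C19 and CYP2C8 (0.225 CPM) were highest in SK-GT-4. CYP2C18 was 5.23 CPM in FLO-1, 2.86 in SK-GT-4, 0.606 in OE19, 0.268 in OAC_5.1_C and 0.0222 in ESO-51, with 0 counts in OACP4_C, ESO-26, OE33 and JH_EsoAd1. It overlaps a gene on its own strand, and the authors' second counting mode gave 471 in place of 392 counts in FLO-1, 135 in place of 89 in SK-GT-4 and 20 in place of 13 in OAC_5.1_C. CYP2C19, which activates clopidogrel, reached 2.96 CPM in SK-GT-4, with 2.09 CPM in ESO-51 next. ESO-51 thus held CYP2C19 with 1 count of CYP2C18. The ethanol-oxidising CYP2E1 was highest in ESO-51 (3.82 CPM) and ESO-26 (3.69 CPM). CYP2A6, CYP2A7, CYP2A13, CYP2F1 and CYP2C8 stayed under 1 CPM throughout, with CYP2F1 in SK-GT-4 (0.997 CPM) the highest of them.

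CYP4F genes on chromosome 19, whose enzymes hydroxylate the end carbon of fatty acids, leukotrienes and vitamin K, were highest in SK-GT-4 for CYP4F2, CYP4F3, CYP4F8 and CYP4F12 and in ESO-51 for CYP4F11. CYP4F3, named for leukotriene B4 inactivation, was 240.3 CPM in SK-GT-4, 40.4 in OE19, 38.8 in ESO-51, 17.6 in FLO-1, 11.4 in JH_EsoAd1, 3.79 in OAC_5.1_C, 1.70 in OE33, 0.724 in OACP4_C and 0.173 in ESO-26. SK-GT-4 was 5.95-fold above OE19 (5.59 to 6.34), which made CYP4F3 a gene that passed the stricter rule. CYP4F12 was 97.0 CPM in SK-GT-4, 52.4 in OE19, 44.8 in FLO-1, 24.7 in JH_EsoAd1, 4.71 in OE33, 1.11 in ESO-51, 0.535 in OAC_5.1_C, 0.242 in OACP4_C and 0.0577 in ESO-26. ESO-51, close to OE19 for CYP4F3, was thus low for the neighbouring CYP4F12.

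Of the other CYP4F genes, CYP4F11 followed a different order. CYP4F11 was highest in ESO-51 (43.0 CPM) and SK-GT-4 (37.2), followed by 14.99 in OACP4_C, 10.01 in FLO-1, 3.37 in JH_EsoAd1, 3.32 in OE33, 0.713 in OE19, 0.231 in ESO-26 and 0.0412 in OAC_5.1_C. OACP4_C was thus above OE19 for CYP4F11 and below it for CYP4F12. CYP4F2, a vitamin K oxidase, was 5.50 CPM in SK-GT-4, 0.855 in OE19, 0.734 in ESO-51, 0.320 in FLO-1 and at most 0.0690 in OACP4_C, OAC_5.1_C, JH_EsoAd1, OE33 and ESO-26. Its highest libraries, SK-GT-4, OE19, ESO-51 and FLO-1, came in the same order as for CYP4F3. Of the CYP4F2 windows 11.9% occur in CYP4F3, so reads of the pair cannot be fully told apart in any library. CYP4F8 reached 1.54 CPM (SK-GT-4) and 1.48 CPM (FLO-1), and CYP4F22, an enzyme of skin lipids, 1.62 CPM in OE33.

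**Figure D4:**
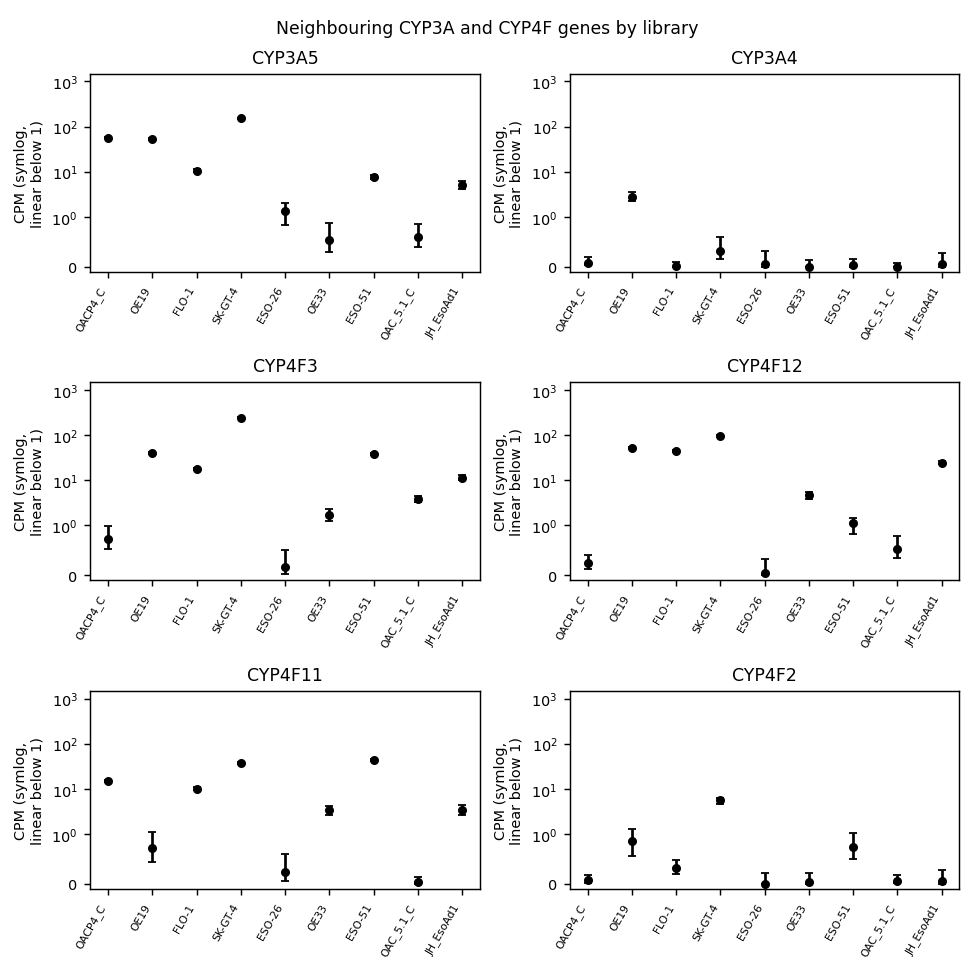
CPM by library of CYP3A5, CYP3A4, CYP4F3, CYP4F12, CYP4F11 and CYP4F2, with Poisson 95% intervals, on axes that are logarithmic above 1 CPM and linear below. SK-GT-4 is highest for CYP3A5, CYP4F3, CYP4F12 and CYP4F2, while CYP4F11 is highest in ESO-51 (43.0 CPM) and low in OE19 (0.713 CPM).

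Other enzymes of fatty acids were spread over the lines. CYP2J2, an epoxygenase of arachidonic acid, was 23.9 CPM in ESO-51, 12.9 CPM in SK-GT-4, 4.91 in FLO-1, 2.81 in OACP4_C, 2.70 in OAC_5.1_C, 1.27 in ESO-26, 0.545 in JH_EsoAd1, 0.0377 in OE33 and 0 counts in OE19 (floor 0.107 CPM). CYP2U1, a fatty acid hydroxylase, was 23.5 CPM in JH_EsoAd1, 21.4 in OAC_5.1_C, 12.6 in ESO-26, 8.27 in FLO-1, 6.90 in OE33, 4.85 in ESO-51, 3.24 in OE19, 2.48 in OACP4_C and 0.836 in SK-GT-4. SK-GT-4, highest for most CYP4F genes, was lowest for CYP2U1. CYP4V2, known from a retinal dystrophy, was 23.0 CPM in FLO-1, 17.8 in OAC_5.1_C, 15.2 in JH_EsoAd1, 11.7 in OE19, 6.09 in ESO-51, 5.40 in SK-GT-4, 5.02 in OACP4_C, 3.81 in OE33 and 3.63 in ESO-26, and it was among the 5 genes at 1 CPM in every library. CYP4V2 overlaps KLKB1 on its own strand. The authors' second counting mode gave 83 in place of 63 counts in ESO-26 and 108 in place of 101 in OE33. Which of these libraries was lowest for CYP4V2 thus depended on the mode. CYP4B1 reached 2.53 CPM in both ESO-51 and OAC_5.1_C, and CYP4A11 and CYP4A22 stayed under 1 CPM.

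CYP24A1, which inactivates vitamin D, split the lines more sharply than any other P450 gene save CYP4F3 by its log2 range (7.09 against 7.68). CYP24A1 was 148 CPM in OAC_5.1_C, 113 in OACP4_C, 101 in ESO-26, 88.5 in JH_EsoAd1, 26.4 in OE33 and 13.8 in FLO-1, and 0.321 in OE19, 0.161 in SK-GT-4 and 0.0889 in ESO-51. The lowest of the former 6 libraries was 43.1-fold above the highest of the latter 3 (22.6 to 94.4, on 9 counts in OE19). CYP27B1, which makes active vitamin D, was 11.4 CPM in OE19, 5.20 in OE33, 4.65 in OAC_5.1_C, 3.73 in OACP4_C, 3.70 in SK-GT-4, 2.18 in JH_EsoAd1, 1.40 in ESO-51, 1.39 in FLO-1 and 0.0577 (1 count) in ESO-26. CYP27B1 overlaps METTL1 on the same strand in GENCODE, though its counts were equal under both counting modes the authors deposited. CYP2R1, which performs the first activating step, was 20.0 CPM in SK-GT-4, 19.3 in ESO-26, 16.6 in OACP4_C, 13.1 in ESO-51, 10.5 in OE33, 9.48 in FLO-1, 8.97 in JH_EsoAd1, 7.91 in OE19 and 7.64 in OAC_5.1_C. Its highest library was only 2.61-fold above its lowest (2.3 to 2.98), the narrowest range of the 26 genes on the log2 scale.

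VDR did not share the order of CYP24A1. ESO-51 and SK-GT-4, with 4 and 5 counts of CYP24A1, had the most of the receptor (69.5 and 63.5 CPM). ESO-26, with CYP24A1 at 101 CPM, had the least (1.62 CPM). VDR lay at 33.8 CPM in JH_EsoAd1, 24.4 in OACP4_C, 20.6 in OE19, 7.57 in FLO-1, 6.03 in OAC_5.1_C and 5.92 in OE33. Its partner RXRA stayed between 50.4 CPM (OAC_5.1_C) and 214 CPM (SK-GT-4). The 3 libraries with CYP24A1 under 1 CPM were also those with the highest HNF4A (124 to 167 CPM).

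**Figure D5:**
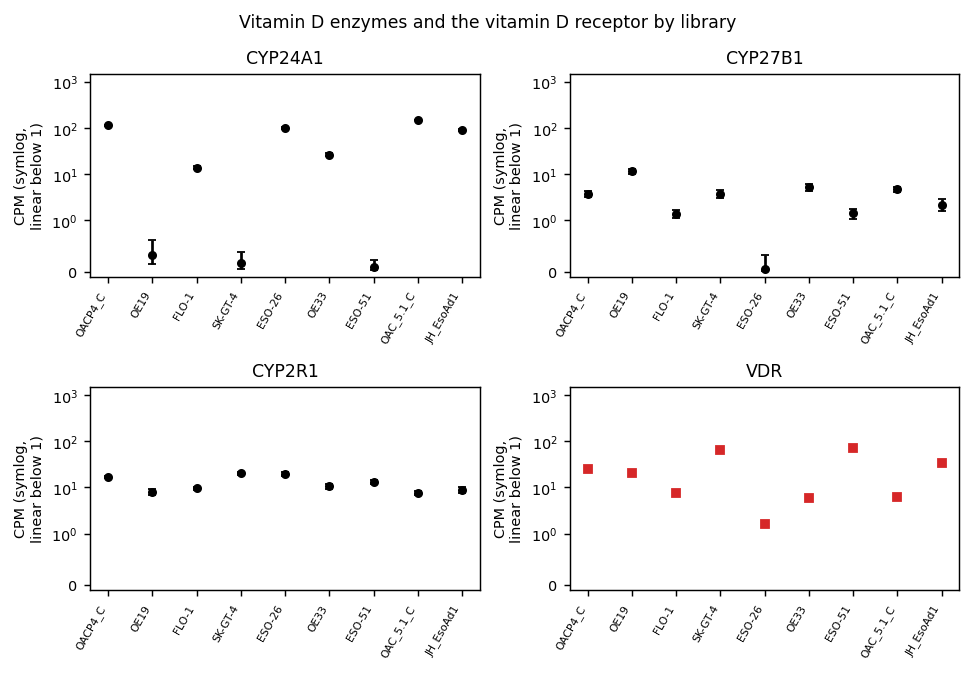
CPM by library for CYP24A1, CYP27B1 and CYP2R1 (black points with Poisson 95% intervals) and VDR (red squares), on axes that are logarithmic above 1 CPM and linear below. CYP24A1 lies at 13.8 CPM or more in 6 libraries and at 0.321 CPM or less in OE19, SK-GT-4 and ESO-51, whereas CYP2R1 is level.

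The CYP26 enzymes, which clear retinoic acid, were divided between CYP26B1 and CYP26A1. CYP26B1 was 36.1 CPM in FLO-1, 23.3 in JH_EsoAd1, 13.5 in OE19, 4.83 in OE33, 2.66 in OAC_5.1_C, 1.92 in OACP4_C, 0.378 in ESO-51, 0.288 in ESO-26 and 0 counts in SK-GT-4 (floor 0.0965 CPM). CYP26A1 was 8.97 CPM in OE33, 1.63 in FLO-1, 0.741 in OAC_5.1_C, 0.231 in ESO-26, 0.121 in OACP4_C, 0.0991 in JH_EsoAd1, 0.0356 in OE19, 0.0222 in ESO-51 and 0 counts in SK-GT-4. OE33 was 5.52-fold above FLO-1 for CYP26A1 (4.42 to 6.92) and below FLO-1, JH_EsoAd1 and OE19 for CYP26B1, and SK-GT-4 held no count of either. CYP26C1 stayed under 1 CPM (at most 0.276 CPM, OACP4_C).

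Of 9 retinoid handling genes, 7 were tested, and 6 passed the wider rule as higher in some library and 6 as lower (28.7% and 17.1% of genes tested). In FLO-1, highest for CYP26B1, 5 of them were higher and none lower (6.19% and 1.21% of genes tested, median difference 3.11, against 0.00 over all genes tested). ALDH1A3, which makes retinoic acid, was 1464 CPM in OACP4_C and 1055 CPM in JH_EsoAd1. ALDH1A1 was 3803 CPM in ESO-51 and 881 CPM in OE19, and STRA6, a retinol transporter, was 86.1 CPM in ESO-26. RARB, a retinoic acid receptor gene, was 34.4 CPM in ESO-26, where CYP26A1 and CYP26B1 were both under 1 CPM. It also passed the wider rule as higher in FLO-1 (6.80 CPM), the library with the most CYP26B1.

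A CYP26A1 promoter is shown for its direct repeat, a kind of site that retinoic acid receptors bind. This repeat was searched on both strands with exact half-sites and any 5 bases between them. The first and last 6 capitals are the half-sites, read here on the reverse strand. The 150 bases before the start (RefSeq, GRCh38.p14, chr10:93073743-93073892, plus strand, 5′ to 3′) carry it in capitals, at 90 to 74 bases before the start.
CYP26A1: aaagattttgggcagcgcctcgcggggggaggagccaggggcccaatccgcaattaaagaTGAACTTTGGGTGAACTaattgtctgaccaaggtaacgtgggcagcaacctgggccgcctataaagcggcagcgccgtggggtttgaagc
The repeat was found in 3 of 35116 promoters (0.00854%) and in no other P450 promoter of the table. That table holds more than 1 promoter for CYP26A1, and the promoter printed above is that with the match.

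Among the enzymes of sterols and bile acids, CYP51A1, the lanosterol demethylase of cholesterol synthesis, was present in every line. It was 30.3 CPM in ESO-26, 20.2 in FLO-1, 16.7 in OACP4_C, 15.4 in OE19, 15.2 in OAC_5.1_C, 6.69 in JH_EsoAd1, 5.66 in OE33, 4.60 in SK-GT-4 and 2.76 in ESO-51. By the counts in the table, ESO-26 was 11.0-fold above ESO-51 (9.01 to 13.5). CYP51A1 overlaps other genes on both strands, and the authors' second counting mode gave 1.61 times (OE19) to 2.22 times (SK-GT-4) the counts in the table, the largest such change of any P450 gene over its range. It gave 853 in place of 525 counts in ESO-26 and 266 in place of 124 in ESO-51, so the fold between them was smaller. Under that mode ESO-51 no longer passed the wider rule as lower for CYP51A1, nor with library size alone or a pseudocount of 5. Of 20 cholesterol synthesis genes, all tested, 3 passed that rule as higher somewhere (among them HMGCS1 and LSS) and 1 as lower (MVD, in ESO-51), against 28.7% and 17.1% of genes tested. Their median difference was -1.10 in ESO-51, 0.77 in ESO-26 and 1.26 in OAC_5.1_C, against 0.00, -0.02 and 0.03 over all genes tested.

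CYP27A1, a mitochondrial sterol hydroxylase, was 20.2 CPM in ESO-51, 7.16 in OAC_5.1_C, 3.87 in JH_EsoAd1, 1.89 in OE33, 1.74 in OACP4_C, 0.804 in SK-GT-4, 0.463 in OE19, 0.413 in FLO-1 and 0.115 in ESO-26. ESO-51 was 2.83-fold above OAC_5.1_C (2.50 to 3.21). CYP39A1, an oxysterol hydroxylase, was 5.95 CPM in JH_EsoAd1, 5.65 in FLO-1, 3.95 in OAC_5.1_C, 3.63 in SK-GT-4, 2.82 in OE19, 0.311 in ESO-51, 0.173 in ESO-26, 0.0863 in OACP4_C and 0 counts in OE33. JH_EsoAd1 and FLO-1 did not differ beyond counting error (ratio 1.05, 0.852 to 1.29).

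CYP7A1, the rate-limiting enzyme of bile acid synthesis, and the oxysterol hydroxylase gene CYP7B1 were counted in FLO-1 alone. FLO-1 had 138 counts of CYP7A1 (1.84 CPM) and 115 of CYP7B1 (1.53 CPM), and every other library had 0 of both. Against the floor of 3 counts in each other library, CYP7A1 was at least 10.6-fold higher (ESO-26) to at least 35.5-fold higher (OACP4_C), and CYP7B1 at least 8.86-fold to at least 29.6-fold. FLO-1 was also the deepest library, and the part of depth was not tested. Both genes are on chromosome 8 and neither reached 5 CPM, so the rules of size did not test them. CYP8B1, which directs synthesis to cholic acid, was at most 0.226 CPM (OAC_5.1_C), and the brain enzyme CYP46A1 reached 2.65 CPM in ESO-26.

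None of the 6 genes of steroid hormone synthesis reached 5 CPM. CYP19A1, the aromatase that makes oestrogens, came nearest with 4.91 CPM in ESO-51, 3.83 CPM in SK-GT-4, 1.56 in ESO-26, 1.38 in OACP4_C and 1.14 in JH_EsoAd1, and 0 counts in OE19 and FLO-1. CYP11A1, which cleaves the cholesterol side chain, was 3.47 CPM in OE33 and 1.14 CPM in JH_EsoAd1. CYP17A1, CYP21A2 and CYP11B1 stayed under 1 CPM, and CYP11B2 had 0 counts in all 9 libraries, the sole P450 gene with none. STAR, which delivers cholesterol to CYP11A1, was at most 0.453 CPM, NR5A1, the master regulator of steroid-making cells, at most 0.427 CPM, and HSD3B2 had 0 counts throughout. Not all steroid synthesis partners were this low. Of 9 such genes, these included, 5 reached 5 CPM in some library and were tested. By the wider rule 2 were higher somewhere and 1 lower (28.7% and 17.1% of genes tested).

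Enzymes with less settled substrates held 48.2% of the summed P450 FPKM in ESO-51 and 3.92% in ESO-26. CYP2S1, an epithelial P450, was 166 CPM in SK-GT-4, 88.4 in OE19, 29.04 in OAC_5.1_C, 20.8 in OACP4_C, 19.5 in JH_EsoAd1, 8.27 in FLO-1, 7.40 in ESO-51, 3.28 in OE33 and 0.634 in ESO-26. Its 2 lowest libraries were OE33, lower for 3 of the 5 epithelial markers, and ESO-26, lower for all 5, and the part of this in the result was not tested. CYP2W1, known from fetal gut and colorectal tumours, was 81.8 CPM in ESO-51, 3.41 CPM in SK-GT-4, 1.32 in OAC_5.1_C, 1.07 in FLO-1, 1.03 in OE19, 0.717 in OE33, 0.446 in JH_EsoAd1, 0.259 in OACP4_C and 0.173 in ESO-26. At 24.0-fold above the next library (19.8 to 29.4), CYP2W1 in ESO-51 had the widest gap of any P450 gene that reached 5 CPM. Transcripts of CYP2S1 and CYP2W1 shared no 50-base window with another P450 gene.

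CYP20A1, an orphan enzyme, was 33.5 CPM in ESO-51, 18.7 in OE33, 17.2 in FLO-1, 16.2 in OACP4_C, 13.9 in SK-GT-4, 12.2 in JH_EsoAd1, 11.8 in OAC_5.1_C, 8.82 in ESO-26 and 8.20 in OE19, within 4.09-fold from lowest to highest (3.56 to 4.72). CYP4X1 was 10.4 CPM in ESO-51, 2.82 in JH_EsoAd1, 0.720 in FLO-1, 0.415 in OE33, 0.224 in OACP4_C, 0.115 in ESO-26, 0.0643 in SK-GT-4 and 0 counts in OE19 and OAC_5.1_C. ESO-51 was thus highest for CYP2W1, CYP20A1 and CYP4X1, which lie on chromosomes 7, 2 and 1. CYP27C1, a retinoid-modifying enzyme of skin, was 10.4 CPM in JH_EsoAd1, 4.15 in OE33, 0.885 in OAC_5.1_C, 0.0445 in ESO-51, 0.0172 in OACP4_C and 0 counts in the other 4. CYP4Z1 stayed under 1 CPM (0.400 CPM in ESO-51).

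The electron donors and haem enzymes that P450 proteins need were present in every line. P450 oxidoreductase (POR) ranged from 45.5 CPM (JH_EsoAd1) to 373 CPM (OE19) and FDX1 from 6.74 CPM (OE19) to 89.5 CPM (FLO-1). Shares of all genes tested that passed the wider rule in some library were 28.7% as higher and 17.1% as lower. Of 8 electron transfer genes, 2 passed as higher and 1 as lower: FDXR was higher in JH_EsoAd1 (137 CPM), PGRMC1 was higher in ESO-26 (502.5 CPM) and CYB5R3 was lower in ESO-51 (15.3 CPM). Of 9 genes of haem synthesis and breakdown, 1 passed as higher and none as lower, the haem-degrading HMOX1 in OE33 (159 CPM). Among 15 nuclear receptors and liver factors, 12 were tested, and 7 passed as higher and 4 as lower, among them HNF4A and RARB. SK-GT-4, highest in summed P450 level, held 128 CPM of POR, below OE19, OE33, FLO-1 and ESO-51. The P450 relatives with other names, thromboxane synthase (TBXAS1) and prostacyclin synthase (PTGIS), reached 10.9 CPM in OACP4_C and 4.05 CPM in OAC_5.1_C.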

How the data were processed

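The 9 libraries were aligned with STAR 2.6.1d and processed with FastQC 0.11.7 and R 3.6.1 on GRCh37, per the submitters' processing notes; the read counter, annotation release and strand setting are not given in the sources used here. Whole-number counts per gene symbol were deposited in 1 table by the authors, without normalisation. Files of each line hold deposited counts in 2 modes, a gene length and FPKM, which, from the values, divides each count by gene length and by the file's total, rows outside the table included. Counts of all 56 genes in the table equalled the deposited union-mode counts, and 51 were equal in both modes. The blank gene name (at most 0.00965% of counts) was left out. The column OACM5.1_C was taken as OAC_5.1_C.

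TMM factors (edgeR 4.0.16, R 4.3.3; 0.831 to 1.11) came from 17163 genes at 1 CPM in at least 2 libraries, and a pseudocount of 1 was used on the log2 scale. Gene identifiers came from a table that matched all 56 symbols, and biotypes, overlaps and transcripts from GENCODE 29. Promoters for 39 genes came from RefSeq on GRCh38.p14, another build than that of the counts. P450 genes at 5 CPM in some library are given in all 9, and the others by their highest levels; a few genes counted in the totals are not reported here. Higher calls by the rules of size were checked on simulated data with counting error alone, and lower calls were not simulated. Alternatives were DESeq2 1.42.0 size factors, library size alone, a pseudocount of 5, other minimum levels, FPKM, the second counting mode and leaving out each library. The genes, lists and rules were chosen with earlier results of these data known. Other steps used Python 3.11.15 (pandas 2.3.3, numpy 2.4.6, matplotlib 3.10.9, scipy 1.17.1). In bulk RNA, fewer cells and less RNA per cell cannot be told apart. Motif half-sites are textbook forms, and their letters were matched in the RefSeq sequences.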

Additional observations from a re-analysis of the deposited data

How the results depend on the processing

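No paired analysis was possible because each line has 1 library. The 2 genes called by the stricter rule, CYP2W1 in ESO-51 and CYP4F3 in SK-GT-4, passed it with DESeq2 size factors, library size alone, a pseudocount of 5, no minimum CPM, deposited FPKM and the second counting mode. Leaving out a library gave 1 call (without ESO-51, which held CYP2W1) to 4 calls (without OE33). The wider rule depended on scale: its 57 calls (33 higher, 24 lower) became 26 (20 and 6) with a pseudocount of 5, 9 (9 and 0) with FPKM, and 10 (10 and 0) with a minimum FPKM of 1, a setting added after the data were seen. FPKM values are smaller than CPM here, so the pseudocount and minimum weigh more. Leaving out each library gave 40 (SK-GT-4) to 56 calls, with 45 without OE19, whose ERBB2 level is at odds with its name, 23 (ESO-51) to 33 higher and 15 (SK-GT-4) to 23 lower. Of the 57 calls, 42 held without each other library; the other 15 were CYP4F12 lower in 4 libraries, CYP4F11 lower in 3, CYP24A1 higher in ESO-26 and JH_EsoAd1, CYP4F3 higher in OE19 and ESO-51, CYP26B1 higher in OE19, CYP2J2 higher in SK-GT-4, CYP1B1 higher in OE33 and CYP3A5 lower in ESO-26. None changed sign in any setting. Detection fell from 39 genes to 20 at an FPKM of 1, and was 37 to 39 without each library. The highest over the lowest summed P450 level was 6.51 by FPKM, 3.33 by CPM and 2.59 by CPM per kilobase (added after the data were seen). A level under about 1 CPM rests on few counts in ESO-26, the shallowest library.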
